A study of Mus musculus with 14 samples.

Results

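Disease-associated microglia genes are genes that microglia, the resident macrophages of the brain, switch on near plaques, dying neurons and other lesions. A set of 10 of them was followed here: the receptors and adaptor Trem2, Tyrobp, Axl, Clec7a and Itgax, the lipid-handling genes Apoe and Lpl, and the secreted or lysosomal products Cst7, Lyz2 and Spp1. They were taken as the rows of both count tables whose gene name was one of these symbols, which gave 10 of the 24912 genes that both tables list. All 10 passed the filter on low counts in both experiments.

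The RNA came from the dorsal hippocampus. Mice were males of 8 months on a C57BL6/J background (C57BL6 in the labels). In basal conditions, resting WT mice (3 libraries) were compared with resting THY-Tau22 mice (2 libraries), for which the labels name no injection. In the learning experiment, WT mice given saline either stayed in the home cage (WT VEH_HC, 3 libraries) or were trained in the Morris water maze, a test of spatial memory (WT VEH, 2 libraries). Trained THY-Tau22 mice received either CSP, a carbon nanosphere that serves as the carrier (TAU VEH, 2 libraries), or CSP-TTK21, the same carrier loaded with an activator of the acetyltransferases CBP and p300 (TAU MOL, 2 libraries). THY-Tau22 mice are heterozygous for a mutated human Tau that a Thy1.2 promoter drives in neurons, so that the transgene is not placed in microglia. The WT mice were given saline and no CSP, and genotype and carrier cannot be told apart in the learning experiment. Some libraries of that experiment were excluded by the study after their data had been seen, and are not analysed here.

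TREM2 is a microglial receptor for lipids and lipoproteins that signals through the adaptor TYROBP, also called DAP12, and the kinase SYK. CLEC7A, also called dectin-1, reaches the same kinase, whereas AXL binds GAS6 and PROS1 and takes part in the uptake of dying cells, and ITGAX, also called CD11c, pairs with ITGB2 to form an integrin. APOE carries lipids and is a ligand of TREM2, LPL releases fatty acids from lipoproteins, CST7 inhibits lysosomal cathepsins, LYZ2 is a lysozyme and SPP1, or osteopontin, binds integrins and CD44. In mouse models of amyloid deposition the programme is usually described as an early step that includes Tyrobp, Apoe and Lyz2, and a later, TREM2-dependent step that includes Axl, Clec7a, Itgax, Lpl, Cst7 and Spp1. In the hippocampus Apoe is also made by astrocytes, Lpl by neurons and Axl by other glial and vascular cells. In tissue RNA, fewer cells of a type and less RNA per cell cannot be told apart.

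The gene bodies lie, in the mm9 build, on chromosome 17 from 48485726 to 48493472 for Trem2, on chromosome 6 from 129411611 to 129422790 for Clec7a, and on chromosome 7 from 31198807 to 31202596 for Tyrobp, from 26542292 to 26573724 for Axl, from 135273061 to 135294171 for Itgax and from 20281458 to 20284515 for Apoe. Lpl lies on chromosome 8 from 71404390 to 71431347, Cst7 on chromosome 2 from 150396151 to 150404680, Lyz2 on chromosome 10 from 116714390 to 116719377 and Spp1 on chromosome 5 from 104864137 to 104870069. No exon of these genes overlaps an exon of another annotated gene. Reads were 50 bases long and only uniquely aligned reads were counted, and 82.8% of the 50-base stretches of the Lyz2 exons and 88.5% of those of Itgax occur in 1 place in the genome. The repeated stretches of Lyz2 lie in its neighbour Lyz1, which had between 0 and 4 reads in any library, and those of Itgax lie in Itgad. For Lpl the share was 91.2%, for Trem2 98.7%, and for each of the other 6 genes 100%.

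The 150 bases upstream of the transcription start are shown for Clec7a, Itgax, Cst7 and Lyz2. In these 4 genes every THY-Tau22 library lay above every WT library of its experiment, home cage included. They come from RefSeq in the GRCm38.p6 build, in which 8 of the 10 genes had a promoter entry (all but Lpl and Tyrobp), and run 5′ to 3′ on the strand of the gene. Capitals mark the letters GAGGAA, or their complement TTCCTC, a form of the site that the myeloid factor PU.1 binds.
Clec7a (chr6:129472780-129472929, minus strand): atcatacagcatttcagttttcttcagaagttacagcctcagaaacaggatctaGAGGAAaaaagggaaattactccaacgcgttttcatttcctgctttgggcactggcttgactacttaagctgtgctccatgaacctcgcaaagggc
Itgax (chr7:128129400-128129549, plus strand): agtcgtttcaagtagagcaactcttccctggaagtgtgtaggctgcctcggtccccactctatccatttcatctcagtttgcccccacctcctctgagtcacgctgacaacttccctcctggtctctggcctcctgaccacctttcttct
Cst7 (chr2:150570265-150570414, plus strand): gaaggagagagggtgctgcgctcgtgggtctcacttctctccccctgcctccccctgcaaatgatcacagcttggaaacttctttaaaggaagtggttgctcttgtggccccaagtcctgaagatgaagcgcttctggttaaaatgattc
Lyz2 (chr10:117282273-117282422, minus strand): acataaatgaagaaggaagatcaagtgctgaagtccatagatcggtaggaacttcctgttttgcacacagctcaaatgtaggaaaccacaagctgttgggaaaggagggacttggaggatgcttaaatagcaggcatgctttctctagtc
Of these 4 windows, GAGGAA was found in that of Clec7a, 96 bases before the start. Other or shorter forms of the PU.1 site were not searched, so the other windows may hold them. Searched on both strands over 250 bases upstream, GAGGAA occurred in 5 of the 8 genes (Trem2, Axl, Clec7a, Apoe and Spp1) and in 25.9% of all genes with an entry. The letters TGANTCA, which the AP-1 factors bind, occurred in 2 of the 8 (Trem2 and Itgax) and in 7.82% of all genes, and TCACGTG, an E-box of the TFE and MITF factors, in 0 of the 8 and in 3.58% of all genes. The last 2 strings can share the letters TCA. A match is a description of these letters and not of a bound site.

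Libraries held between 28639121 and 37681155 counts on genes in the basal experiment and between 24693713 and 52180305 in the learning experiment. Thy1, whose promoter drives the transgene, lay between 1804 and 2351 CPM (reads of a gene scaled to library size with TMM factors) in the THY-Tau22 libraries and between 786 and 913 CPM in the WT libraries, so that every library followed its genotype label. The mouse Mapt gene did not pass the test in any comparison of the genotypes, and the human Tau transcript is not part of the mouse genome. The libraries also differed in 14 markers of the choroid plexus epithelium, whose summed level was 2188 to 3137 CPM in WT VEH, 159 to 415 CPM in WT VEH_HC, 462 to 543 CPM in TAU VEH, 1070 to 1181 CPM in TAU MOL and 595 to 713 CPM in basal WT. The basal THY-Tau22 libraries stood at 703 CPM (replicate 1) and 1991 CPM (replicate 2). Each library was further compared with the mean of its experiment for the relation of the log ratio to the GC content of the genes. The Spearman rho across genes, which are not independent, was 0.481 and -0.600 in the basal THY-Tau22 replicates 1 and 2, between -0.617 and -0.396 in the 4 TAU libraries of the learning experiment, and between 0.0848 and 0.455 in its 5 WT libraries. In the learning experiment the groups did not overlap in the choroid plexus sum. A fit with these markers as a covariate therefore separates their part poorly from the group difference. Neither a lost call nor a turned sign in such a fit can be assigned to one of them. The part of these differences in the results was not tested beyond the alternative fits given with each result.

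Levels between the genes are compared as CPM divided by the kilobases of exon (CPM per kb). Apoe was by far the most abundant, from 666 to 1225 CPM per kb over the 14 libraries, and its range overlapped no other. Tyrobp followed with 18.4 to 38.5 and Axl with 12.1 to 14.5 CPM per kb. Lyz2, at 2.15 to 11.7 CPM per kb, overlapped with Lpl (5.35 to 7.94), Trem2 (2.70 to 5.03) and Spp1 (0.602 to 5.53), whereas Lpl lay above Trem2 in all libraries. Clec7a (0.0355 to 2.25), Cst7 (0.110 to 1.64) and Itgax (0.0720 to 0.690) were the least abundant. These last 3 rested on few reads, between 4 and 152 counts per library for Clec7a, 5 and 48 for Cst7 and 11 and 98 for Itgax, so that depth as well as the spread between libraries limits them. In the learning experiment Clec7a reached the filter's limit of 0.235 CPM in 2 of 5 WT and 4 of 4 TAU libraries and Cst7 in 3 of 5 and 4 of 4, whereas the other 8 genes reached it in every library.

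**Figure D1:**
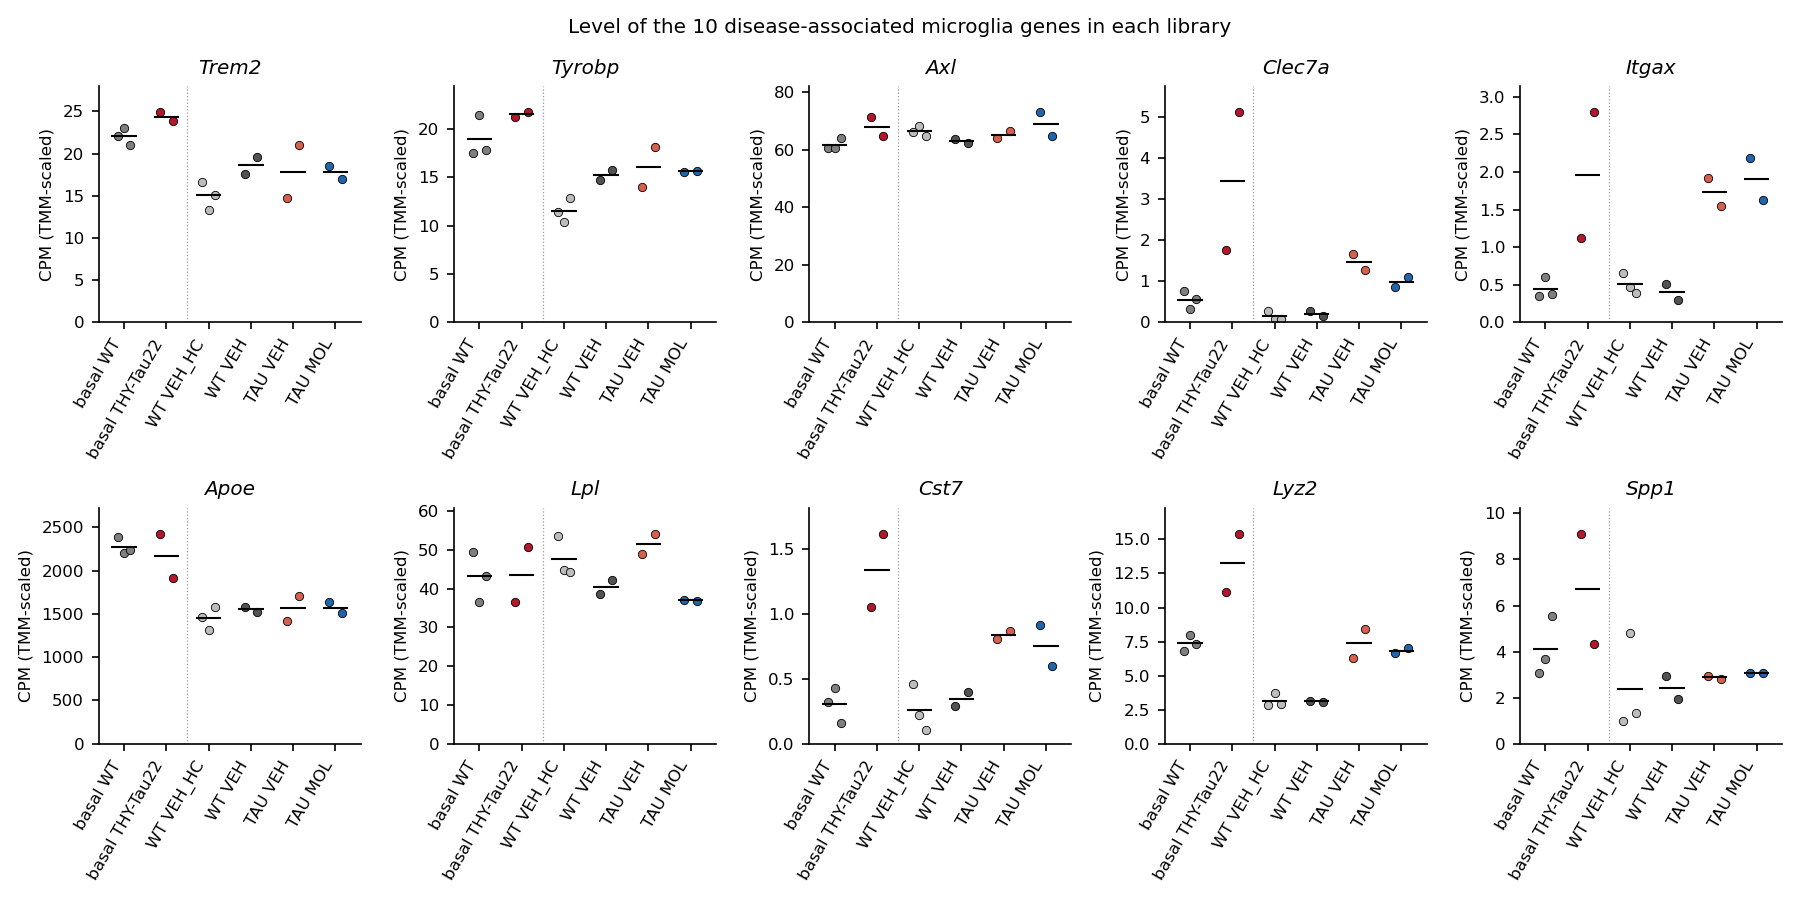
Level of each of the 10 genes in each of the 14 libraries, in CPM scaled with TMM factors, on a linear axis that starts at 0. Points are libraries, bars are group means, and a dotted line divides the basal experiment (left) from the learning experiment (right). Clec7a, Itgax, Cst7 and Lyz2 were higher in every THY-Tau22 library than in every WT library of the same experiment, whereas Apoe overlapped between the genotypes in both.

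The first question was whether these genes differ between THY-Tau22 and WT mice. In basal conditions 0 of the 10 genes passed the test as higher, beside 0.00613% of all 16324 genes tested, that is 1 gene. A gene passed where its adjusted p was under 0.05 and its log2 fold change was beyond 0.2 in either direction, by edgeR's quasi-likelihood F test with Benjamini-Hochberg adjustment over all genes. At an unadjusted p under 0.05, 5 of the 10 genes were higher and 0 lower, beside 803 of all genes in either direction, and DESeq2 called 3 of the 10 (Clec7a, Itgax and Lyz2), beside 41 of all genes in either direction, and the median log2 fold change was 0.45 for the 10 genes and -0.01 for all genes. In trained mice, 4 of the 10 genes rose in TAU VEH relative to WT VEH (Clec7a, Itgax, Lyz2 and Lpl), beside 3.61% of the 16820 genes tested. The median log2 fold change was 0.29 for the 10 genes and 0.00 for all genes. In TAU MOL relative to WT VEH, 3 of the 10 rose (Clec7a, Itgax and Lyz2), beside 0.612% of all genes. These 2 comparisons share the WT VEH libraries.

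Clec7a and Itgax were the receptors with the largest differences between genotypes. Clec7a stood at 0.756, 0.316 and 0.565 CPM in the basal WT libraries and at 1.77 and 5.12 CPM in the basal THY-Tau22 libraries. It stood at 0.266 and 0.159 CPM in WT VEH, 1.66 and 1.28 CPM in TAU VEH and 0.868 and 1.10 CPM in TAU MOL. Every THY-Tau22 library was above every WT library of its experiment, and the basal THY-Tau22 replicate 2 had the highest level of all 14. The log2 fold change was 2.64 in basal conditions (SE 0.46, adjusted p = 0.22), 2.78 in TAU VEH relative to WT VEH (SE 0.46, adjusted p = 0.0023) and 2.18 in TAU MOL relative to WT VEH (SE 0.47, adjusted p = 0.022). Without the basal THY-Tau22 replicate 2 the basal value was 1.68 (adjusted p = 0.95), and without the basal WT replicate 1 it was 2.98 and passed the test (adjusted p = 0.039).

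Itgax showed the same order. Its level was 0.351, 0.603 and 0.377 CPM in basal WT and 1.12 and 2.79 CPM in basal THY-Tau22 libraries. In trained mice it was 0.507 and 0.291 CPM in WT VEH, 1.91 and 1.55 CPM in TAU VEH and 2.18 and 1.62 CPM in TAU MOL. The genotypes did not overlap in either experiment. The log2 fold change was 2.12 in basal conditions (SE 0.43, adjusted p = 0.24), 2.11 in TAU VEH (SE 0.34, adjusted p = 0.0023) and 2.23 in TAU MOL relative to WT VEH (SE 0.34, adjusted p = 0.0099). Without the basal THY-Tau22 replicate 2 the basal value was 1.32 (adjusted p = 0.95). Its paralog Itgad, at 0.291 to 0.340 CPM over WT VEH and TAU VEH, had a log2 fold change of 0.04 between TAU VEH and WT VEH (adjusted p = 0.97).

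The receptor Trem2, its adaptor Tyrobp and the receptor Axl did not pass the test between genotypes. Trem2 was at 22.1, 23.0 and 21.0 CPM in basal WT and 24.9 and 23.9 CPM in basal THY-Tau22, and at 17.6 and 19.6 CPM in WT VEH, 14.7 and 21.1 CPM in TAU VEH and 18.6 and 17.0 CPM in TAU MOL. Its basal libraries did not overlap, whereas the WT VEH libraries lay between the TAU VEH libraries. The log2 fold change of Trem2 was 0.15 in basal conditions (95% interval -0.11 to 0.40) and -0.07 in TAU VEH (-0.41 to 0.26), and both upper bounds lay below the lower bounds for Clec7a (1.60 and 1.78). For Tyrobp the values were 17.5, 21.5 and 17.8 CPM in basal WT and 21.3 and 21.7 CPM in basal THY-Tau22, with overlap, and 14.7 and 15.7 CPM in WT VEH, 13.97 and 18.1 CPM in TAU VEH and 15.6 and 15.7 CPM in TAU MOL. Its log2 fold change was 0.19 in basal conditions (-0.10 to 0.47) and 0.07 in TAU VEH (-0.22 to 0.36). In that comparison, leaving out TAU VEH replicate 1 or 2 gave 0.18 or -0.34 for Trem2 and 0.25 or -0.12 for Tyrobp. Axl lay between 60.7 and 73.1 CPM in all 14 libraries. Its THY-Tau22 libraries lay above the WT libraries in basal conditions. TAU VEH and TAU MOL lay above WT VEH, while both overlapped with WT VEH_HC. The log2 fold change of Axl was 0.14 in basal conditions (-0.10 to 0.38) and 0.05 in TAU VEH (-0.12 to 0.21).

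Of the lipid-handling genes, Apoe overlapped between genotypes. It stood at 2382, 2198 and 2232 CPM in basal WT and 2425 and 1910 CPM in basal THY-Tau22 (log2 fold change -0.07, 95% interval -0.38 to 0.24), and between 1418 and 1711 CPM in the 6 trained libraries (0.01 in TAU VEH relative to WT VEH, -0.21 to 0.23). With the mean level of the choroid plexus markers as a covariate this last value was 0.45 (adjusted p = 0.34), and it was 0.14 or -0.13 without TAU VEH replicate 1 or 2. Lpl overlapped in basal conditions, at 49.5, 36.5 and 43.3 CPM in WT and 36.5 and 50.6 CPM in THY-Tau22 libraries. In trained mice Lpl was at 38.6 and 42.2 CPM in WT VEH, rose to 48.8 and 54.1 CPM in TAU VEH and was at 37.1 and 36.9 CPM in TAU MOL. The log2 fold change was 0.35 in TAU VEH (SE 0.10, adjusted p = 0.040) and -0.13 in TAU MOL relative to WT VEH (SE 0.10, adjusted p = 0.56). The call of Lpl was lost when any 1 of 6 libraries was left out: at adjusted p = 0.21 without WT VEH replicate 1, 0.094 without WT VEH replicate 2, 0.083 without TAU VEH replicate 1, 0.22 without TAU VEH replicate 2, 0.062 without TAU MOL replicate 1 and 0.062 without TAU MOL replicate 2. It was also lost once each library was corrected for the GC content and length of the genes, with a log2 fold change of 0.22 (adjusted p = 0.32).

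Of the secreted and lysosomal products, Lyz2 and Cst7 followed Clec7a and Itgax. Lyz2 was at 6.81, 7.98 and 7.35 CPM in basal WT and 11.1 and 15.4 CPM in basal THY-Tau22 libraries. In trained mice it was at 3.17 and 3.10 CPM in WT VEH, 6.28 and 8.45 CPM in TAU VEH and 6.63 and 7.01 CPM in TAU MOL, with every THY-Tau22 library above every WT library of its experiment. The log2 fold change was 0.85 in basal conditions (SE 0.17, adjusted p = 0.24), 1.22 in TAU VEH (SE 0.18, adjusted p = 0.0017) and 1.12 in TAU MOL relative to WT VEH (SE 0.18, adjusted p = 0.010).

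Cst7 separated the genotypes as well, but passed the test in neither comparison with WT VEH nor in basal conditions. Its level was 0.324, 0.431 and 0.157 CPM in basal WT, 1.05 and 1.62 CPM in basal THY-Tau22, 0.290 and 0.397 CPM in WT VEH, 0.809 and 0.868 CPM in TAU VEH and 0.912 and 0.598 CPM in TAU MOL. The log2 fold change was 2.103 in basal conditions (SE 0.41, adjusted p = 0.24), 1.28 in TAU VEH (SE 0.49, adjusted p = 0.11) and 1.14 in TAU MOL relative to WT VEH (SE 0.48, adjusted p = 0.21). In TAU VEH relative to WT VEH it passed without the filter on low counts (adjusted p = 0.020) and in a fit on these 2 groups alone (adjusted p = 0.019), and its direction turned when the mean level of the choroid plexus markers entered as a covariate (-0.50, adjusted p = 0.88). Spp1 was variable within groups, at 3.05, 3.68 and 5.56 CPM in basal WT, 9.11 and 4.34 CPM in basal THY-Tau22, 2.92 and 1.96 CPM in WT VEH, 2.94 and 2.83 CPM in TAU VEH and 3.09 and 3.07 CPM in TAU MOL. Its groups overlapped in basal conditions and between TAU VEH and WT VEH, and the log2 fold change was 0.72 in basal conditions (95% interval 0.01 to 1.44, adjusted p = 0.90) and 0.24 in TAU VEH (-0.97 to 1.45). The basal value of Spp1 was 0.11 without the basal THY-Tau22 replicate 1 and 1.16 without replicate 2. In TAU VEH relative to WT VEH it was 0.57 without WT VEH replicate 1, -0.02 without WT VEH replicate 2 and -1.75 with the choroid plexus covariate (adjusted p between 0.52 and 0.99).

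**Figure D2:**
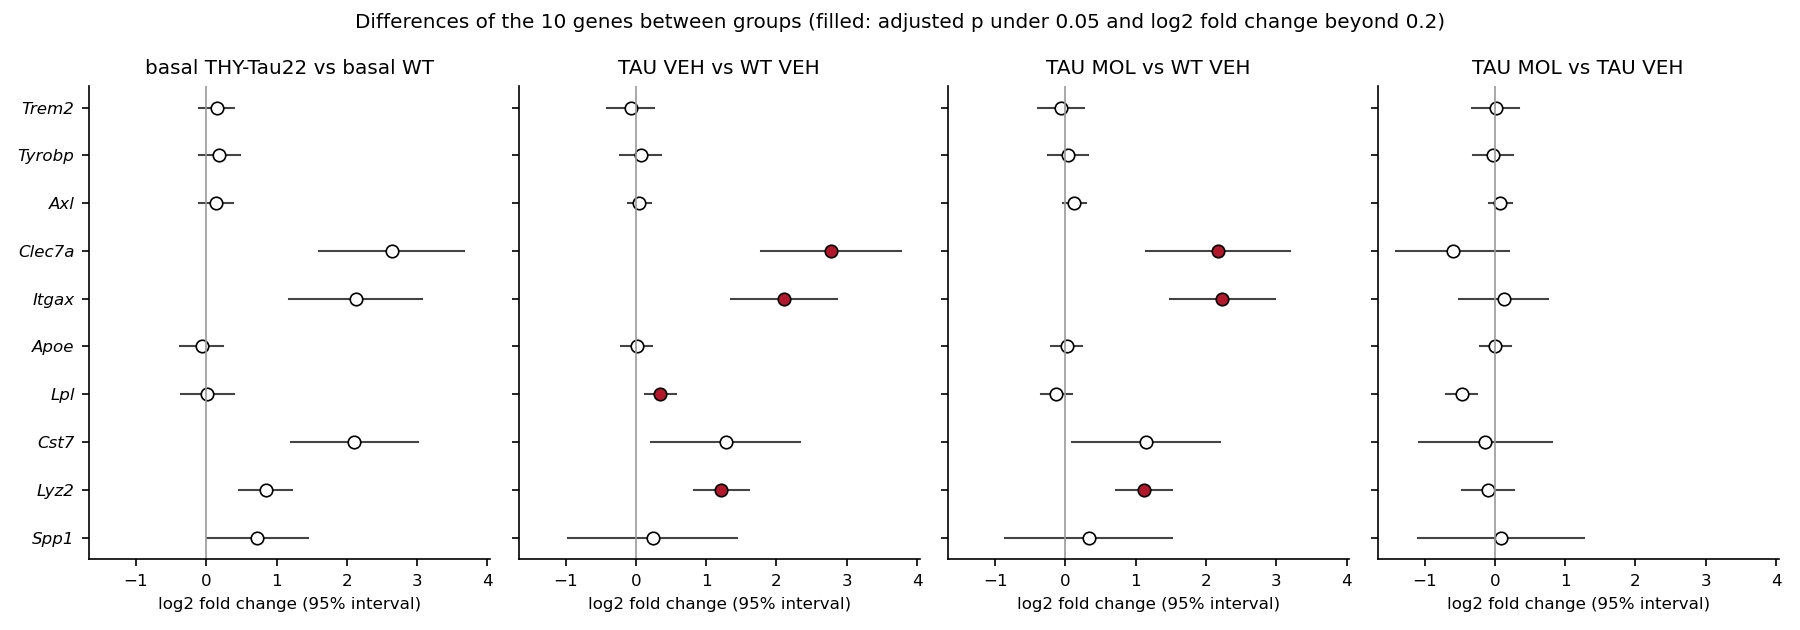
Log2 fold change of each of the 10 genes in 4 comparisons, with 95% intervals from edgeR's quasi-likelihood fit. Filled points passed the test (adjusted p under 0.05 and a log2 fold change beyond 0.2) and open points did not: 0 genes in basal conditions, 4 in TAU VEH relative to WT VEH, 3 in TAU MOL relative to WT VEH and 0 in TAU MOL relative to TAU VEH.

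The calls in trained mice differed in how much they rested on single libraries. Clec7a, Itgax and Lyz2 passed in TAU VEH relative to WT VEH in each of the 9 fits that left out 1 library of the learning experiment, with adjusted p up to 0.035, 0.033 and 0.020. The 3 calls in TAU MOL relative to WT VEH were all lost without WT VEH replicate 1 (adjusted p = 0.096 for Clec7a, 0.064 for Itgax and 0.068 for Lyz2), without WT VEH replicate 2 (0.21, 0.074 and 0.077), without TAU MOL replicate 1 (0.12, 0.10 and 0.10) and without TAU MOL replicate 2 (0.14, 0.068 and 0.071). With the choroid plexus covariate, the log2 fold changes in TAU VEH relative to WT VEH were 2.00 for Clec7a, 1.88 for Itgax and 0.96 for Lyz2, and none of the 10 genes passed (adjusted p = 0.56, 0.38 and 0.35), nor did any other gene. The same covariate left 0 of the 10 genes called in TAU MOL relative to WT VEH. In basal conditions it gave 1.61 for Clec7a, 1.22 for Itgax, 1.65 for Cst7 and 0.57 for Lyz2 (adjusted p = 0.995 for each). With the correction for GC content and length, Clec7a, Itgax and Lyz2 passed in TAU VEH relative to WT VEH, at 2.61, 2.15 and 1.16. In TAU MOL relative to WT VEH Itgax and Lyz2 passed with it (2.25 and 1.10) and Clec7a did not (2.04, adjusted p = 0.11).

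A joint model then covered both experiments. Averaged over the basal and the trained contrast, 4 of the 10 genes rose with the THY-Tau22 genotype, beside 0.658% of the 17026 genes tested. The log2 fold changes were 2.71 for Clec7a (SE 0.36, adjusted p = 0.0028), 2.11 for Itgax (SE 0.29, adjusted p = 0.0035), 1.69 for Cst7 (SE 0.33, adjusted p = 0.033) and 1.03 for Lyz2 (SE 0.13, adjusted p = 0.0015). By unadjusted p they ranked 12, 13, 66 and 7 among all genes tested. The same 4 passed with the choroid plexus covariate, at 3.18, 2.46, 1.71 and 1.11. Clec7a, Itgax and Lyz2 passed without each of the 14 libraries in turn. Cst7 lost its call without the basal WT replicate 1 (adjusted p = 0.058), the basal THY-Tau22 replicate 2 (0.12), WT VEH replicate 1 (0.14), WT VEH replicate 2 (0.11), TAU VEH replicate 1 (0.12), TAU VEH replicate 2 (0.11) or TAU MOL replicate 1 (0.056). Lpl, at 0.18 (adjusted p = 0.30), passed without the basal THY-Tau22 replicate 1 (0.28, adjusted p = 0.046).

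The difference between the genotype effects of trained and untrained mice was tested as well, in which experiment, treatment and training cannot be told apart. For this difference, 0 of the 10 genes passed, beside 0.129% of all genes (22 genes), and at an unadjusted p under 0.05 the counts were 0 of the 10 and 1325 of all genes. With DESeq2, 0 of the 10 genes and 121 of all genes passed. The intervals were wide for the genes of low level: the difference of the log2 fold changes, learning minus basal, was 0.18 for Clec7a (95% interval -1.37 to 1.73), 0.03 for Itgax (-1.24 to 1.29), -0.79 for Cst7 (-2.23 to 0.66) and 0.41 for Lyz2 (-0.13 to 0.95). Without the basal THY-Tau22 replicates 1 and 2 in turn it was -0.38 and 1.10 for Clec7a and -0.48 and 0.80 for Itgax, and with the choroid plexus covariate 2.44 and 1.60.

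The effect of CSP-TTK21 in trained THY-Tau22 mice was addressed by TAU MOL relative to TAU VEH. Of the 10 genes, 0 passed as higher and 0 as lower with edgeR, beside 0% of all genes, and at an unadjusted p under 0.05 the counts were 1 of the 10 genes and 1064 of all genes. Lpl was that gene: both TAU MOL libraries (37.1 and 36.9 CPM) lay below both TAU VEH libraries (48.8 and 54.1 CPM), with a log2 fold change of -0.47 (SE 0.10, unadjusted p = 0.00056, adjusted p = 0.25). Over the alternatives it lay between -0.55 and -0.37, and it passed with DESeq2 (adjusted p = 0.010), which called 54 of all genes, in a fit on the TAU groups alone (adjusted p = 0.032) and without the filter on low counts (adjusted p = 0.00011). Clec7a was at 0.868 and 1.10 CPM in TAU MOL and at 1.66 and 1.28 CPM in TAU VEH, without overlap, a log2 fold change of -0.60 whose 95% interval ran from -1.41 to 0.20. The log2 differences were 0.12 for Itgax (-0.51 to 0.75), -0.14 for Cst7 (-1.09 to 0.81) and -0.10 for Lyz2 (-0.47 to 0.28), with overlapping libraries. Trem2, Tyrobp, Axl and Apoe differed by between -0.03 and 0.08 on the log2 scale, and Spp1 by 0.09 (-1.09 to 1.27).

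Spatial training was examined in WT VEH relative to WT VEH_HC. Of the 10 genes 0 passed with edgeR, beside 5.35% of all genes called higher, and 2 were higher and 1 lower at an unadjusted p under 0.05, beside 4683 of all genes. Tyrobp was at 14.7 and 15.7 CPM in WT VEH and at 11.4, 10.4 and 12.9 CPM in WT VEH_HC, without overlap, a log2 fold change of 0.40 (SE 0.12, adjusted p = 0.061). It passed in 7 of 20 alternatives, among them without WT VEH_HC replicate 3 (0.48, adjusted p = 0.025) and with DESeq2 (0.40, adjusted p = 0.035), which called 1845 of all genes. The direction of Tyrobp turned with the choroid plexus covariate (-0.24, adjusted p = 0.95). Trem2 was at 17.6 and 19.6 CPM in WT VEH and at 16.6, 13.4 and 15.1 CPM in WT VEH_HC (log2 fold change 0.31, SE 0.14, adjusted p = 0.17). Lpl was at 38.6 and 42.2 CPM in WT VEH and at 53.6, 44.7 and 44.3 CPM in WT VEH_HC (-0.23, SE 0.09, adjusted p = 0.13). For Spp1 a single home cage library decided the value: WT VEH_HC stood at 0.991, 4.79 and 1.32 CPM, and without its replicate 2 the log2 fold change of 0.02 became 1.07 and passed (adjusted p = 0.019). Of the 32 other disease-associated genes 5 rose with training (Cd63, Ctsl, Ccl6, Lgals3bp and Npc2, by 0.41 to 0.80), as did the homeostatic genes P2ry12 (0.53) and Tgfbr1 (0.44), the pan-myeloid genes C1qc (0.39) and Ctss (0.43), and 14 of 14 choroid plexus markers (median 3.21), with 0 lower in these lists. With the choroid plexus covariate, 0 of all genes passed in this comparison.

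Clec7a was at 0.280, 0.0805 and 0.0868 CPM, Itgax at 0.661, 0.463 and 0.390 CPM, Cst7 at 0.458, 0.221 and 0.108 CPM and Lyz2 at 2.82, 3.75 and 2.93 CPM in WT VEH_HC. For each of these 4 genes the home cage libraries overlapped with those of WT VEH, and the trained THY-Tau22 libraries lay above both WT groups.

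Trained THY-Tau22 mice were also set against untrained WT mice, a contrast in which genotype, carrier and training cannot be told apart. In TAU VEH relative to WT VEH_HC, 5 of the 10 genes rose, beside 16.2% of all genes: Clec7a by 3.36, Itgax by 1.80, Cst7 by 1.70, Lyz2 by 1.20 and Tyrobp by 0.46 on the log2 scale, with adjusted p between 0.00025 and 0.012. Cst7 lost this call without TAU VEH replicate 1 (adjusted p = 0.067) or replicate 2 (0.052), and Tyrobp without replicate 2 (0.16), whereas Trem2 passed without TAU VEH replicate 1 (0.48, adjusted p = 0.030) and Spp1 without WT VEH_HC replicate 2 (1.31, adjusted p = 0.00076). In TAU MOL relative to WT VEH_HC the same 5 genes rose, beside 14% of all genes called higher: Clec7a by 2.76, Itgax by 1.92, Cst7 by 1.56, Lyz2 by 1.10 and Tyrobp by 0.43. Lpl fell by 0.36 (adjusted p = 0.013), beside 14.9% of all genes called lower. Without TAU MOL replicate 1 the calls of Tyrobp (adjusted p = 0.088), Lpl (0.078) and Cst7 (0.18) were lost, without TAU MOL replicate 2 those of Tyrobp (0.091) and Lpl (0.082), and without WT VEH_HC replicate 2 Spp1 passed (1.40, adjusted p = 0.00092). Itgad rose in all 3 trained groups relative to WT VEH_HC, by 1.58 in WT VEH (adjusted p = 0.036), 1.62 in TAU VEH and 1.64 in TAU MOL, on 4 to 5 counts in the home cage libraries. Other lists moved too: in TAU VEH and TAU MOL, 11 and 16 of 32 other disease-associated, 6 and 4 of 14 homeostatic, 5 and 5 of 12 pan-myeloid and 7 and 5 of 10 astrocyte genes rose. Fallen were 1 and 1 of the disease-associated, 1 and 0 of the pan-myeloid, 4 and 3 of 9 neuron (0 and 1 rose) and 3 and 3 of 6 endothelial and pericyte genes, beside 3058 and 2512 of all genes. Of the 14 choroid plexus markers 5 rose in TAU VEH and 14 in TAU MOL relative to WT VEH_HC (medians 0.90 and 2.09). With these markers as a covariate Clec7a, Itgax, Cst7 and Lyz2 passed in TAU VEH, and 0 of the 10 genes and 18 of all genes in TAU MOL. The comparisons of trained mice share libraries.

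To set the genes beside homeostatic microglia genes, each level was divided by the summed CPM of 14 of these (P2ry12, Tmem119, Cx3cr1 and others) in the same library. That sum was 535 to 556 CPM in basal WT and 593 to 610 CPM in basal THY-Tau22, and 507 to 511 CPM in WT VEH, 440 to 500 CPM in WT VEH_HC, 501 to 544 CPM in TAU VEH and 484 to 546 CPM in TAU MOL. Clec7a was 0.0573% to 0.136% of the sum in basal WT and 0.290% to 0.863% in basal THY-Tau22, and 0.0313% to 0.0520% in WT VEH against 0.236% to 0.331% in TAU VEH. Lyz2 was 1.22% to 1.45% of the sum in basal WT and 1.82% to 2.60% in basal THY-Tau22, and 0.611% to 0.620% in WT VEH against 1.25% to 1.55% in TAU VEH. Itgax and Cst7 stayed apart in the same way, with 0.0574% to 0.0993% and 0.0568% to 0.0783% of the sum in WT VEH and 0.285% to 0.382% and 0.160% to 0.161% in TAU VEH. Relative to the same sum Trem2 overlapped between genotypes in both experiments, at 3.93% to 4.18% in basal WT, 4.02% to 4.08% in basal THY-Tau22, 3.45% to 3.86% in WT VEH and 2.93% to 3.87% in TAU VEH. Genes of the sum can differ between the groups themselves, as Tmem119 did in trained mice (below), so the sum does not measure microglial RNA alone. The ratio is a description and was not tested.

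**Figure D3:**
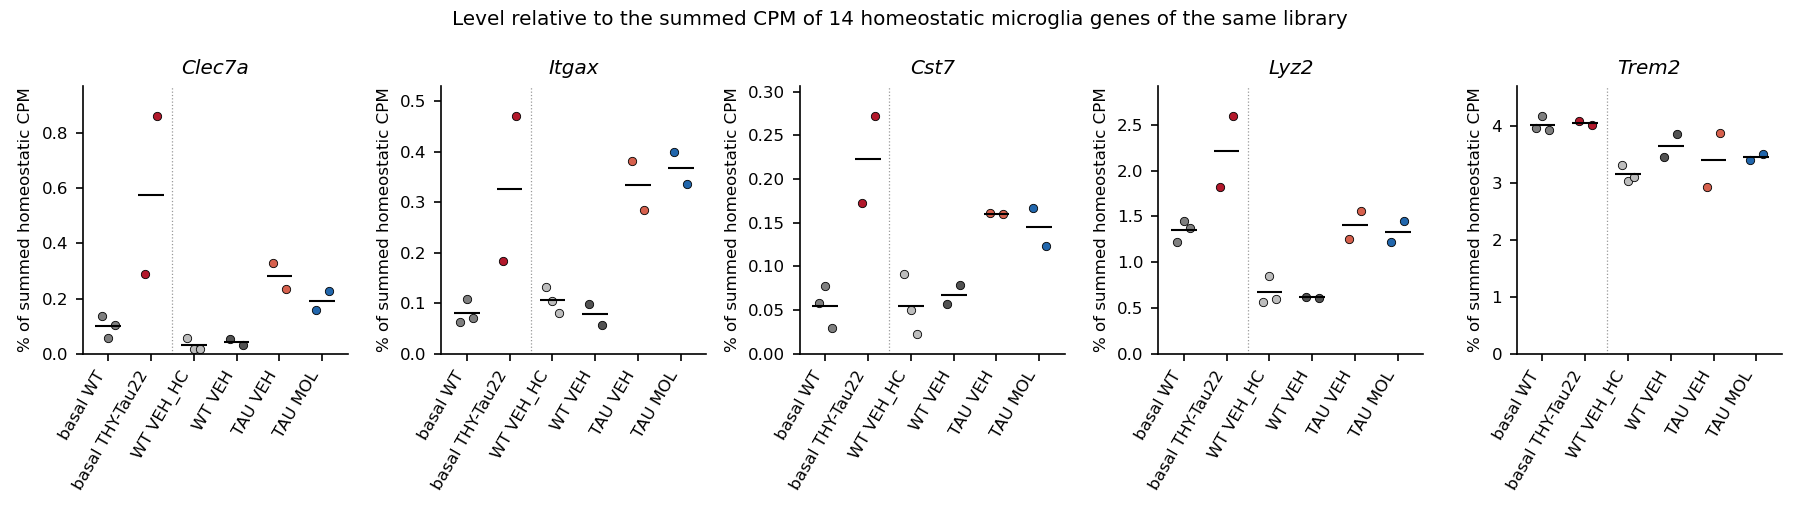
Level of Clec7a, Itgax, Cst7, Lyz2 and Trem2 as a percentage of the summed CPM of 14 homeostatic microglia genes of the same library (linear axes from 0; points are libraries, bars are group means). The THY-Tau22 libraries lie above the WT libraries of their experiment for the first 4 genes, while for Trem2 the genotypes overlap, with 2.93% to 3.87% in TAU VEH and 3.45% to 3.86% in WT VEH.

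The rest of the programme was looked at through 32 other disease-associated microglia genes. In basal conditions 0 of the 30 tested passed, with a median log2 fold change of 0.17. Their summed level was lower, at 4822 to 5406 CPM in basal THY-Tau22 and 5617 to 5964 CPM in basal WT, and at 4436 to 4489 CPM in TAU VEH and 5014 to 5053 CPM in WT VEH, while 23 of the 30 had a basal fold change above 0. TAU MOL (4453 to 4913 CPM) overlapped with WT VEH_HC (3936 to 5001 CPM), as did TAU VEH. In TAU VEH relative to WT VEH 2 of 32 rose, namely Cd52 (1.07, adjusted p = 0.027), a glycoprotein of leukocytes, and Itgb2 (0.46, adjusted p = 0.049), the integrin partner of ITGAX, and 0 fell, beside 608 of 16820 genes that rose (3.61%) and 1815 that fell. The median of this list was 0.10 and that of all genes 0.00. None of the 32 passed in TAU MOL relative to WT VEH, where 103 of all genes rose and 844 fell. Averaged over both experiments 5 of 32 rose and 0 fell, beside 112 and 202 of all 17026 genes: the chemokines Ccl4 (1.94) and Ccl6 (0.86), Cd52 (0.97), Itgb2 (0.45) and the lysosomal glycoprotein Cd68 (0.39), with adjusted p between 0.024 and 0.040.

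The counts of the further lists stand beside the same all-gene counts, 608 higher and 1815 lower in TAU VEH and 103 higher and 844 lower in TAU MOL relative to WT VEH. Among 12 signalling partners of TREM2 and CLEC7A, such as Syk, Plcg2 and Card9, 0 of the 11 tested passed in basal conditions. The kinase subunit Pik3cd fell in TAU VEH (log2 fold change -0.38, adjusted p = 0.0075) and in TAU MOL (-0.37, adjusted p = 0.022) relative to WT VEH, and 0 of 12 rose in either. Among 18 ligands, co-receptors and targets of the 10 genes, 17 were tested and 0 passed in basal conditions, whereas 3 rose and 3 fell in TAU VEH relative to WT VEH. Of the AXL ligands, Pros1 rose (0.53, adjusted p = 0.018) and Gas6 fell (-0.44, adjusted p = 0.0017), and Tyro3, a receptor of the same family, fell (-0.50, adjusted p = 0.0033). The integrin subunits Itgb2 and Itgav (0.31, adjusted p = 0.017) rose, and the APOE receptor Lrp1 fell (-0.54, adjusted p = 0.0020). In TAU MOL relative to WT VEH, Itgav (0.34) and the lipid exporter Abca1 (0.44) rose and Gas6 (-0.33) and Lrp1 (-0.39) fell, with adjusted p between 0.018 and 0.034. Averaged over both experiments Itgb2 (0.45) and Abca1 (0.41) rose and Gas6 fell (-0.25), with adjusted p between 0.037 and 0.045.

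The markers of microglia and of other cell types were counted in the same comparisons. Of 14 homeostatic microglia genes, 0 passed in basal conditions, and in TAU VEH relative to WT VEH Tgfbr1 rose (0.29, adjusted p = 0.041) and Tmem119 fell (-0.35, adjusted p = 0.020). Tmem119 fell in TAU MOL as well (-0.38, adjusted p = 0.029), and 0 of 14 passed when the experiments were averaged. Of 12 pan-myeloid genes, 0 passed in basal conditions, though 12 were above 0 (median log2 fold change 0.27, all genes -0.01). They summed to 518 to 529 CPM in basal THY-Tau22 and 432 to 460 CPM in basal WT. In trained mice the sums overlapped, at 387 to 440 CPM in TAU VEH and 410 to 416 CPM in WT VEH. In TAU VEH relative to WT VEH the transcription factor Irf8 (0.56, adjusted p = 0.011) and the protease Ctss (0.51, adjusted p = 0.019) rose and Laptm5 fell (-0.53, adjusted p = 0.0089). Irf8 rose in TAU MOL relative to WT VEH too (0.48, adjusted p = 0.044), and averaged over both experiments Irf8 (0.58) and Ptprc (0.81), which encodes CD45, rose.

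Border macrophages and blood myeloid cells also make Lyz2, Clec7a and Itgax. Their 11 markers (Mrc1, Cd163, Lyve1, Ccr2, S100a8 and others) summed to 4.67 to 7.24 CPM in basal WT, 7.37 to 8.18 CPM in basal THY-Tau22, 2.92 to 3.23 CPM in WT VEH, 2.73 to 5.92 CPM in WT VEH_HC, 4.30 to 5.02 CPM in TAU VEH and 3.47 to 4.09 CPM in TAU MOL. At most 2 of the 11 had no count in a library, and 0 of the 8 tested in basal conditions and 0 of the 7 tested in trained mice passed between genotypes. Cd163 rose in TAU VEH relative to WT VEH_HC (0.82, adjusted p = 0.0455). The sums of the THY-Tau22 libraries lay above those of the WT libraries given the same training, and their part in the results was not tested. Of 14 choroid plexus markers, 14 fell in TAU VEH and 7 in TAU MOL relative to WT VEH (medians -2.41 and -1.32), whereas in basal conditions 0 passed and 13 were above 0 (median 0.90). Their part in the results was not tested beyond the fits with the covariate. Of 10 astrocyte genes, Gfap, the filament protein of reactive astrocytes, rose in TAU VEH (0.70, adjusted p = 0.0014) and in TAU MOL (0.68, adjusted p = 0.0099) relative to WT VEH, Slc1a2 rose in both (0.35 and 0.38) and Aqp4 in TAU VEH (0.37). Of 9 genes of hippocampal neurons 4 fell in TAU VEH and 2 in TAU MOL relative to WT VEH, and of 6 endothelial and pericyte genes 0 and 1 fell. Of 7 oligodendrocyte genes and 4 red blood cell genes 0 passed in either, and 0 of these 4 lists' genes passed in basal conditions. The oligodendrocyte genes summed to 6702 to 7024 CPM in basal THY-Tau22 and 7219 to 11934 CPM in basal WT (0 of 7 above 0, median log2 fold change -0.48), and 0 of the 6 endothelial and pericyte genes were above 0 in TAU VEH or TAU MOL relative to WT VEH (medians -0.35 and -0.36). Of the astrocyte genes 0 passed in basal conditions. They summed to 5331 to 6485 CPM in basal THY-Tau22 and 4791 to 4981 CPM in basal WT. Their sum was 5149 to 5278 CPM in TAU VEH, 4910 to 5504 CPM in TAU MOL and 4106 to 4387 CPM in WT VEH. The neuron genes summed to 13591 to 13996, 13184 to 14115 and 18151 to 18185 CPM in these groups, in the same order, and overlapped between the basal groups. The part of these lists in the results was not tested.

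**Figure D4:**
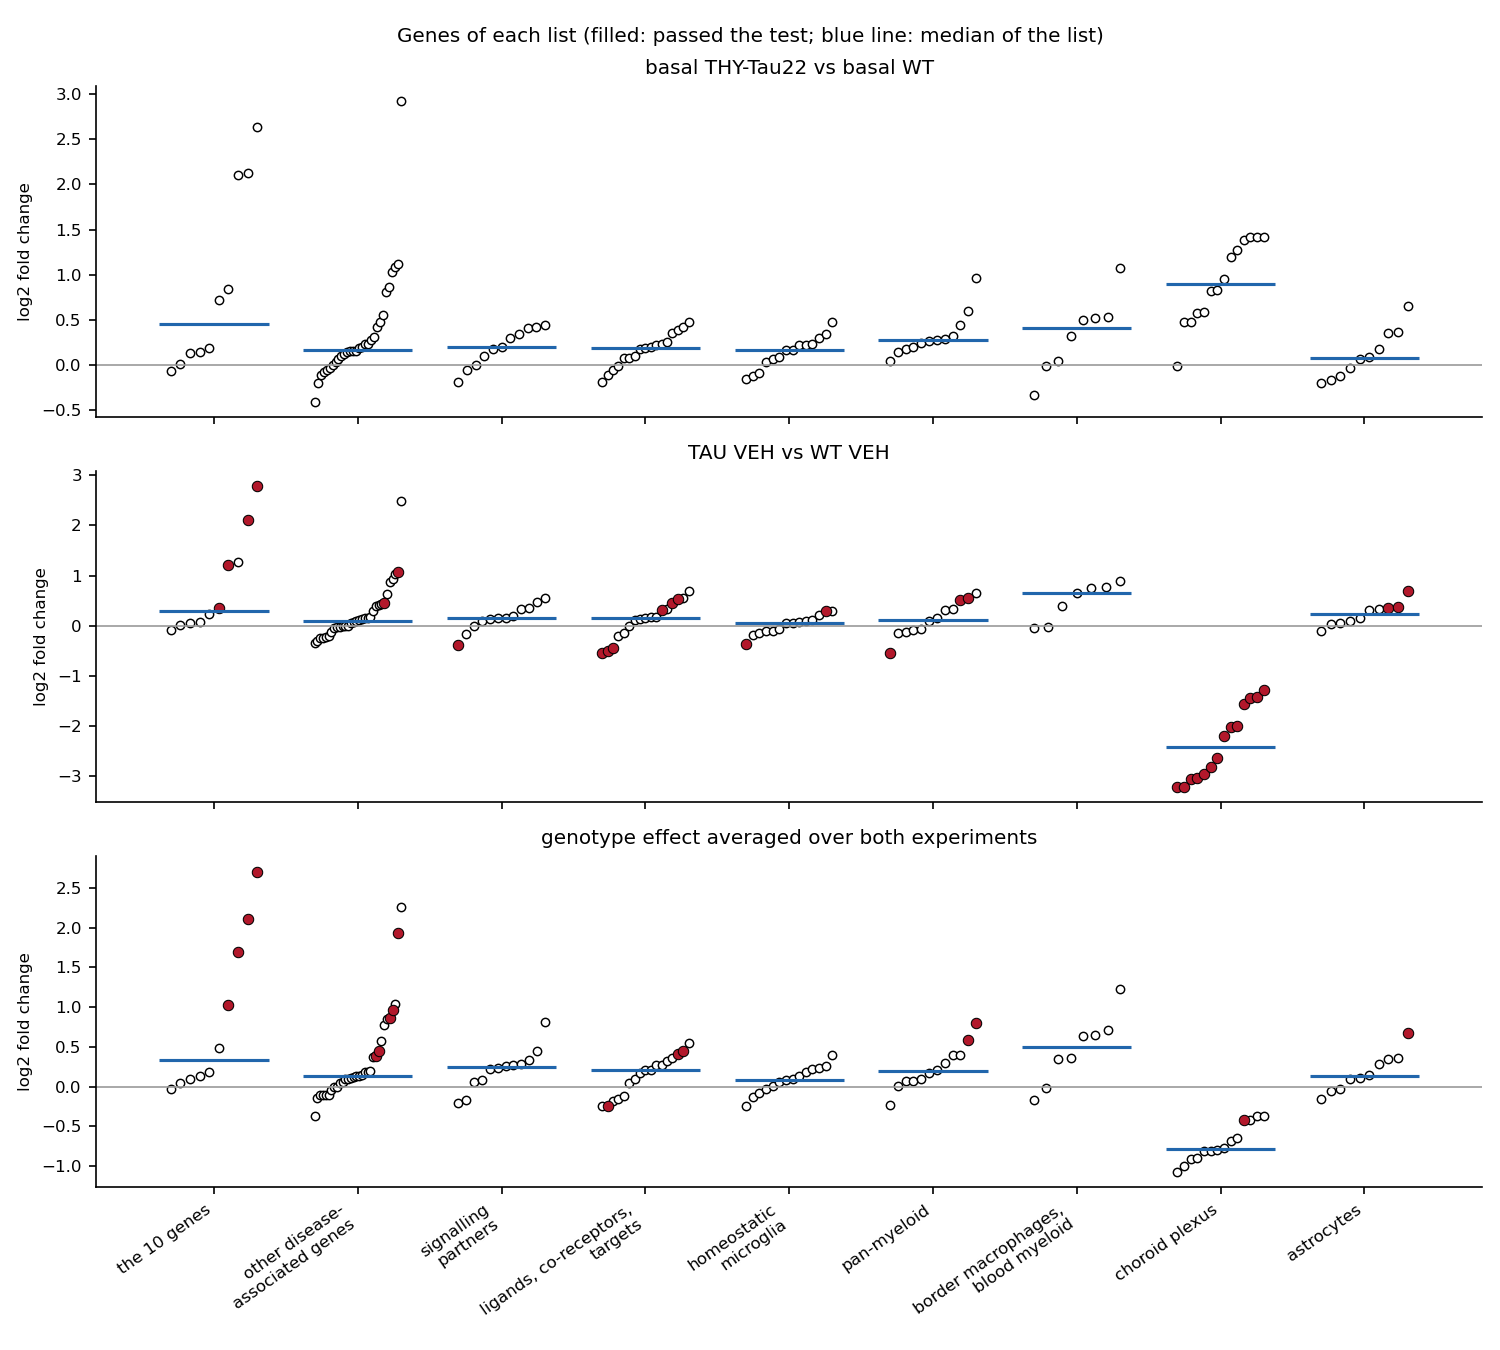
Log2 fold change of the genes of 9 lists, sorted within each list, in basal conditions, in TAU VEH relative to WT VEH and averaged over both experiments. Filled points passed the test, open points did not, and blue lines are list medians. Of the choroid plexus list all 14 genes fell in TAU VEH, with a median of -2.41, and the 10 genes had medians of 0.45, 0.29 and 0.33 in the 3 panels.

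As a last description, each gene's log2 CPM was centred within its experiment and compared over the 14 libraries. The measure was Pearson's r, without a test, since the libraries fall into groups and share the genotype contrast. With the mean of the other 9 genes, r was 0.94 for Lyz2, 0.91 for Itgax, 0.90 for Cst7 and 0.89 for Clec7a, then 0.60 for Tyrobp, 0.47 for Axl, 0.40 for Trem2 and 0.30 for Spp1, and -0.01 for Lpl and -0.03 for Apoe. Among the 8 of 13713 other genes with a mean of at least 1 CPM in both experiments whose pattern was most like the mean of the 10 were Osmr (0.97), Zfyve20 (0.97), Gfap (0.96), Galntl2 (0.95), Nckap1l (0.94), Thy1 (0.94) and Abca8b (0.93). Thy1 is the gene whose promoter drives the transgene. Over the 9 learning libraries alone, 1 of these 8 (Osmr) was again among the 8 most alike.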

How the data were processed

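Poly-A RNA of dorsal hippocampus was sequenced in 14 libraries. The authors aligned reads to mm9 with TopHat 2.0.10 and Bowtie 2.1.0, counted uniquely aligned reads per gene with HTSeq 0.5.4p3, and deposited raw counts beside a normalized signal (counts divided by size factors), of which only the raw counts were used. Counts were tested in edgeR 4.0.16 (R 4.3.3) with TMM factors, filterByExpr at a minimum count of 10 and the quasi-likelihood F test, with Benjamini-Hochberg adjustment over all genes. The basal and learning tables were fitted separately, and jointly, with the experiment in the model, for the averaged effect and its difference. The 138 lines of the learning table without a gene name were left out. Standard errors came from the F statistic, and 95% intervals from the fit. Groups followed the labels, and the study counts its sequenced samples as mice. The 10 genes and all gene lists were chosen with earlier results of these data known. Named genes were the 10, the other listed genes that passed, and the 8 of most similar pattern, of which 1 is not reported here; Itgad and Lyz1 were added for shared sequence. Alternatives were DESeq2 1.42.0, other scalings and filters, a replicate block, a GC and length correction, a choroid plexus covariate, a fit on only the groups compared and leaving out each library. Scripts were tested on simulated data.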

Additional observations from a re-analysis of the deposited data

Results flagged for a closer look

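Lpl, which encodes lipoprotein lipase, was singled out because its difference from WT VEH had opposite signs in the trained THY-Tau22 groups: both TAU VEH libraries lay above both WT VEH libraries and both TAU MOL libraries lay below them. The log2 difference of TAU MOL from TAU VEH was -0.473 and did not pass with edgeR (unadjusted p = 0.00056, adjusted p = 0.25), while it passed with DESeq2 (adjusted p = 0.010). Both comparisons use the same WT VEH libraries.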

How the results depend on the processing

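The number of the 10 genes called higher changed with the processing as follows, and the cause was not tested. Calls over all genes moved as well. They were 125 without the filter in basal conditions (4 as reported) and 3000 with the replicate block in WT VEH relative to WT VEH_HC (1413). With the covariate they were 0 in TAU VEH and 2 in TAU MOL relative to WT VEH, and with DESeq2 1464 for the averaged effect (314). Cst7 passed in TAU VEH relative to WT VEH without the filter and in the fit on only the groups compared. In basal conditions, with 0 called, it was 4 without the filter on low counts, 2 with a replicate block (Clec7a and Itgax) and 3 with DESeq2, and 0 to 1 when 1 library was left out. In TAU VEH relative to WT VEH, with 4 called, it was 0 with the choroid plexus covariate, 3 with the GC and length correction (without Lpl), 3 with DESeq2, which gave Clec7a and Cst7 no adjusted p, and 3 to 4 when 1 library was left out. In TAU MOL relative to WT VEH, with 3 called, it was 0 with the covariate, 0 with DESeq2, which gave 5 of the genes no adjusted p, and 0 to 3 with libraries left out. It was 0 without each library in TAU MOL relative to TAU VEH. In WT VEH relative to WT VEH_HC, with 0 called, it was 1 with library size alone, 2 without the filter, 1 with the replicate block, 1 with the GC and length correction, 1 with both, 1 with DESeq2, and 0 to 1 with libraries left out. In TAU VEH relative to WT VEH_HC, with 5 called, it was 8 with library size alone (6519 of all genes called, 5782 as reported), 3 with DESeq2 and 3 to 6 with libraries left out. In TAU MOL relative to WT VEH_HC, with 5 called, it was 0 with the covariate, 3 with DESeq2 and 3 to 6 with libraries left out. DESeq2 gave Clec7a and Cst7 no adjusted p in either comparison with WT VEH_HC (unadjusted p up to 0.00324 in TAU VEH and 0.00689 in TAU MOL). Apoe passed in both comparisons with WT VEH_HC with library size alone (0.28 and 0.26), with the GC and length correction (0.37 and 0.31) and with that and the block (0.42 and 0.35), and Axl in TAU MOL with the correction (0.21). For the averaged genotype effect, with 4 called, it was 1 with DESeq2, which gave Clec7a, Itgax and Cst7 no adjusted p, and 3 to 5 with libraries left out. For the difference between experiments it was 0 without each library. Scaling by library size alone moved the median of all genes by 0.147 in TAU VEH and 0.121 in TAU MOL relative to WT VEH, and by 0.166 and 0.139 relative to WT VEH_HC.

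The replicate numbers were checked for pairing. Deviations of same-numbered libraries correlated between -0.161 and -0.0647 over 2 pairs in the basal experiment and between -0.0394 and 0.243 over 12 pairs in the learning experiment. For libraries of different number r lay between -0.137 and 0.161 over 4 pairs and between -0.243 and 0.0711 over 18 pairs. In groups of 2 the deviations mirror each other, which ties these ranges together. The check therefore cannot decide whether the numbers mark pairs, and the main fits used no pairing. Over all genes and the alternatives that kept every library, calls ranged from 2 to 125 in basal conditions (4 as reported), from 0 to 3596 in TAU VEH relative to WT VEH (2423), from 2 to 1590 in TAU MOL relative to WT VEH (947), from 0 to 233 in TAU MOL relative to TAU VEH (0), from 0 to 3000 in WT VEH (1413), 1669 to 6519 in TAU VEH (5782) and 18 to 5576 in TAU MOL (4865) relative to WT VEH_HC, from 29 to 1464 for the averaged effect (314) and from 0 to 121 for its difference (22). With 1 library left out they ranged, in the same order, from 1 to 15, 915 to 2944, 2 to 1379, 0 to 15, 73 to 2798, 3273 to 5985, 2319 to 5269, 18 to 3889 and 7 to 767. Clec7a, Itgax and Cst7 rested on as few as 4, 11 and 5 counts per library, which limits their intervals.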
